A study of Mus musculus with 96 samples.

Results

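Gene expression in the right hemisphere of young male mice, the side of the filament (ipsilateral, IP), was compared between mice with a stroke and mice with sham surgery, so that the surgery and not the opposite hemisphere served as the control. The stroke mice were C57BL/6J males aged 8 to 12 weeks whose middle cerebral artery was occluded (MCAO) for 90 min by a filament pushed up from the external carotid artery, with brains taken 30 min after reperfusion, 2 h after onset. The sham mice were males of the same strain and age that had the same operation without the filament, so both groups share anesthesia, analgesia and neck surgery, and tissue was a slice of brain at the level of bregma split into hemispheres. Of 8 MCAO and 4 sham mice, both arrays of MCAO mouse 3 and of sham mouse 1 stood apart and were not used, which leaves 10 IP arrays, 7 MCAO and 3 sham, of 24 arrays of young males and 96 in the whole series. The young males that the study itself left out were all described as ischemic. Of the mice left out here, by contrast, 1 is labelled MCAO and 1 sham, so that the labels and the description differ, and groups were taken from the labels. The opposite (contralateral, CL) hemispheres of the same 10 mice gave 10 further arrays, used below to ask whether a change was larger on the occluded side.

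The values are log2 signals of Clariom S Mouse arrays, and a difference of 1 is a doubling of signal. One probe set stood for each of 19505 genes, and a gene was called where its Benjamini-Hochberg adjusted p in limma was under 0.05. The 10 IP arrays correlated with each other at medians between 0.975 and 0.983, whereas the left-out arrays reached 0.587 (MCAO mouse 3) and 0.552 (sham mouse 1). These medians averaged 0.981 in the 7 MCAO arrays and 0.978 in the 3 sham arrays (two-sided exact permutation test p = 0.0333). Each median was taken over all other used IP arrays, most of them MCAO. A difference in expression between the groups can therefore also lower the sham medians, and the test cannot separate this from array quality. Sham mouse 2 was the lowest of the 10. The part of this difference in the results was not tested, other than by weighting arrays and by leaving mice out. Array weights on the 10 arrays gave 35 called genes, 34 of them among the 40 called below. Without sham mouse 2 the fit gave 24, of which 22 were among the 40. The standard deviation of signal over an array was 2.38 to 2.40 in the MCAO arrays and 2.35 to 2.39 in the sham arrays (two-sided exact permutation test p = 0.025, where 0.00833 is the smallest possible). Its part in the results was not tested, other than by quantile normalization of the 10 arrays, which makes it equal. That fit gave 39 called genes, 37 of them among the 40. The tissue carried the genes of brain, with Snap25 of synapses at the 99.9th percentile of mean signal, Mbp of myelin at the 99.9th and Cldn5 of brain endothelium at the 79.3rd. The labels do not say how mice were assigned to days or scans, and the p-values measure the spread between these mice.

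When blood flow stops, neurons lose their ion gradients, release glutamate and fill with calcium within minutes. Calcium and stress kinases act on transcription factors that are already in the cell, such as CREB and serum response factor, and these switch on immediate early genes, which need no new protein to be transcribed. Among the first products are other transcription factors (the Fos, Jun, Egr and Nr4a families and Npas4), together with phosphatases and RNA-binding proteins that end the response. Heat shock proteins, chemokines and cytokines usually follow as proteins unfold and as microglia and vessels react.

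In the IP hemisphere 34 genes were higher after MCAO than after sham surgery (0.174% of all genes tested) and 6 were lower (0.0308%). The 34 rises ran between 0.80 and 4.88 on the log2 scale, 31 of them over a doubling and 10 over a 4-fold change, while the 6 falls ran between −0.97 and −0.69. The median difference over all 19505 genes was 0.02. In each of the 40 genes the 7 MCAO arrays and the 3 sham arrays did not overlap, which held for 1.48% of all genes in the direction of higher and 0.933% in the direction of lower signal. At an adjusted p under 0.25, the threshold in the study's methods, 78 genes were higher (0.4%) and 30 lower (0.154%), and 1437 genes reached an unadjusted p under 0.05. Of the 34 higher genes, 32 stood in at least 1 of 23 lists of pathway genes, and none of the 6 lower genes did. These lists held 3.06% of all genes tested and were drawn up with earlier results of these data known, so the overlap is no independent evidence.

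**Figure D1:**
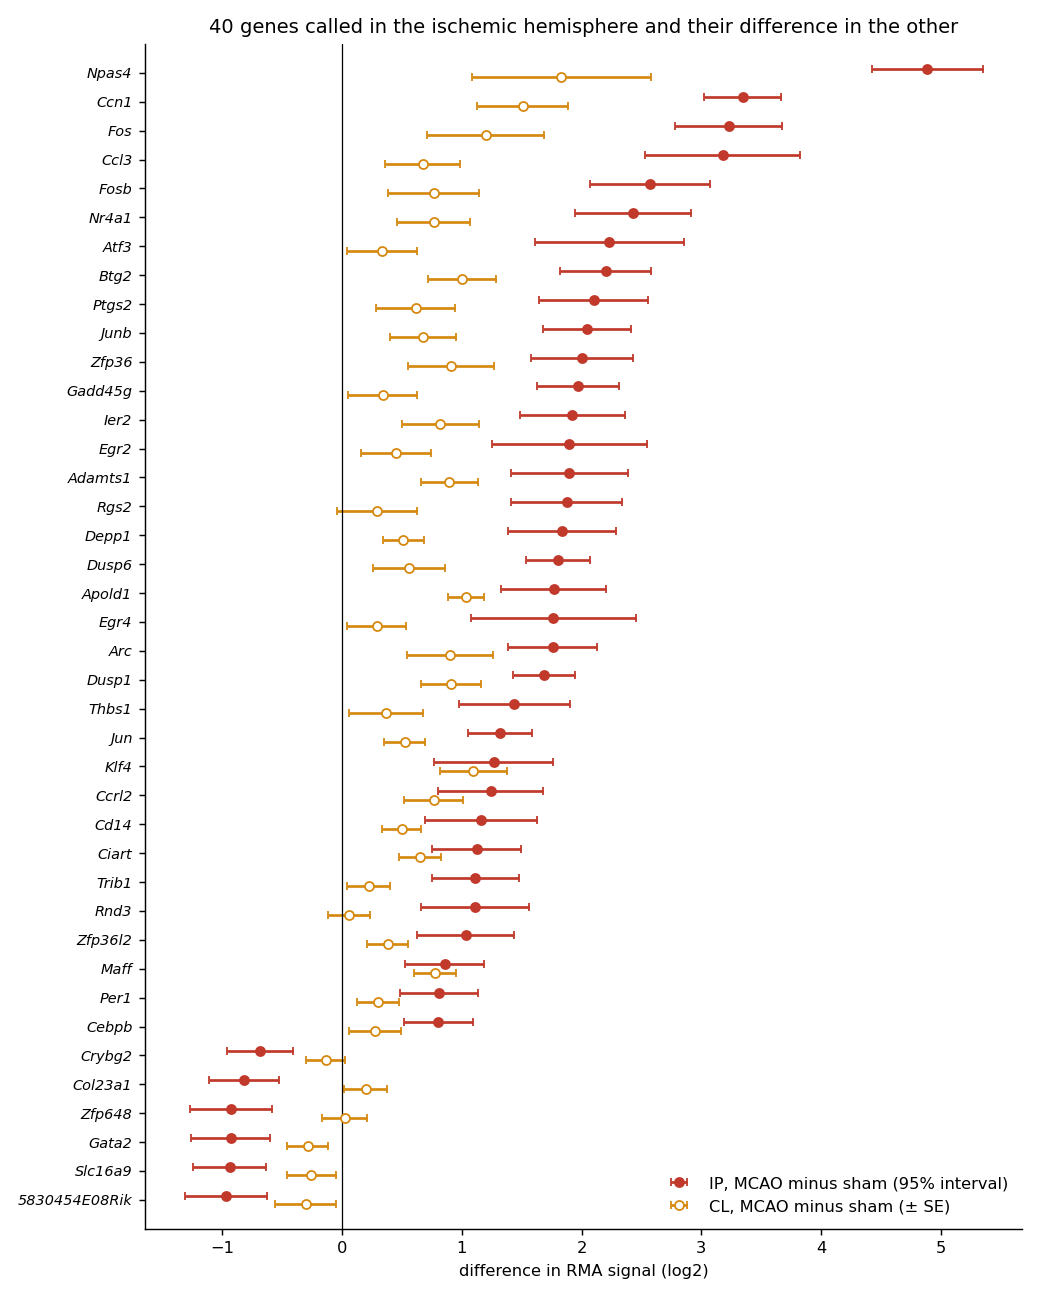
The 40 genes called in the IP hemisphere, ordered by their difference in log2 signal, MCAO minus sham (x axis). Filled points give the IP difference with its 95% interval and open points the difference in the CL hemisphere ± SE; all 34 higher genes have a CL mean above 0 as well, and their CL median is 0.66 against 1.82 in IP.

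Npas4, a transcription factor of neurons that is switched on by calcium entry, changed most. Its signal in the MCAO arrays ran between 8.90 and 10.17 with a median of 9.70, against 4.70, 4.86 and 4.65 in the sham arrays. The lowest MCAO array thus stood about 4 units above the highest sham array, and the difference was 4.88 (SE 0.22, 95% interval 4.42 to 5.35, limma adjusted p = 1.16e-08), a 29.5-fold signal. Ccn1, a secreted matrix protein made by injured vessels and stretched cells, had signals between 9.10 and 9.76 (median 9.56) in MCAO arrays and of 6.08, 6.10 and 6.17 in sham arrays. Both groups were tight for this gene, and its difference of 3.34 (SE 0.15, adjusted p = 1.16e-08) was 10.2-fold. Ccn1 was also the one gene still called when the 2 mice not used were put back.

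Fos, the partner of Jun in the AP-1 transcription factor, had signals between 8.08 and 9.13 (median 8.90) in MCAO arrays, against 5.44, 5.91 and 5.36 in sham arrays. MCAO mouse 5 was the lowest and still lay well above every sham mouse, and the difference was 3.23 (SE 0.21, adjusted p = 1.33e-06). Ccl3, a chemokine that microglia secrete to attract leukocytes, was more spread, between 5.81 and 7.53 (median 6.64) in MCAO arrays and at 3.28, 3.85 and 3.05 in sham arrays. It differed by 3.18 (SE 0.30, adjusted p = 5.65e-05). Fosb, a relative of Fos, lay between 7.79 and 9.03 (median 8.81) in MCAO arrays, against 6.34, 6.04 and 5.81 in sham arrays, a difference of 2.57 (SE 0.23, adjusted p = 4.37e-05).

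The promoters of these 5 genes, the highest in difference, are shown because they are the members with the largest changes and differ in the short motifs that the known calcium, growth factor and heat shock pathways use. Each runs over 250 bases before and 50 bases after the RefSeq start of transcription (GRCm38.p6), written along the gene's own strand: Npas4 at chr19:4989922-4990221, minus strand, Ccn1 at chr3:145649936-145650235, minus strand, Fos at chr12:85473640-85473939, plus strand, Ccl3 at chr11:83649329-83649628, minus strand and Fosb at chr7:19309996-19310295, minus strand. Capitals mark half-sites of the cAMP response element (CRE), TGACGT or its complement ACGTCA, which CREB can bind, and 1 heat shock element in Ccn1.
Npas4: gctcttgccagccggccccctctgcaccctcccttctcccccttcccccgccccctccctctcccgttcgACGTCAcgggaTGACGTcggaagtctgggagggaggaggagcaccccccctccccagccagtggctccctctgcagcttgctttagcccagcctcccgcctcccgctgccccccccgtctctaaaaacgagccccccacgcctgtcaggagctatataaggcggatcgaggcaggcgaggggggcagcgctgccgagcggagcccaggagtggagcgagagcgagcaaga
Ccn1: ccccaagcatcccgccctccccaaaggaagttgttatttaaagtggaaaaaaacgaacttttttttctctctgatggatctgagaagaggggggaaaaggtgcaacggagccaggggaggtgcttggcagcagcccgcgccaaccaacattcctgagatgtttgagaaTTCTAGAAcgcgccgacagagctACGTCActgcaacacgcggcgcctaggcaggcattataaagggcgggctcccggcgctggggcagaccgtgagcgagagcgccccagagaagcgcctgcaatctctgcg
Fos: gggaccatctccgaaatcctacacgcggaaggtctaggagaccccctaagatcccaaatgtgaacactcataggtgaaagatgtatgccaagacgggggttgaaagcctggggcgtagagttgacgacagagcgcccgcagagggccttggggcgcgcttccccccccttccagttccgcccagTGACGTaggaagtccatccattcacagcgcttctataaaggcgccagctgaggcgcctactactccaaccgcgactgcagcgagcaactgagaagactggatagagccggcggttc
Ccl3: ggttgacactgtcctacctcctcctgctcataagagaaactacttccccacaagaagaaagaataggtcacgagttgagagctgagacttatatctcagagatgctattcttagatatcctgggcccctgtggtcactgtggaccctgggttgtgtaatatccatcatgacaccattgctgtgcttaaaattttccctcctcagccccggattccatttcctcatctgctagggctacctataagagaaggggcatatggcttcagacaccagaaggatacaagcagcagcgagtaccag
Fosb: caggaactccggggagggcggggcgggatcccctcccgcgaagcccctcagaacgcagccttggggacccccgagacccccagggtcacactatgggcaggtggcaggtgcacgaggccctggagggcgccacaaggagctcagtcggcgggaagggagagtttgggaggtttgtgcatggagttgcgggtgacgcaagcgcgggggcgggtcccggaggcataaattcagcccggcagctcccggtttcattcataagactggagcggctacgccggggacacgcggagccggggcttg
Npas4 held 2 half-sites, beginning at bases 71 and 82 of the window, Ccn1 held 1 at base 192 and Fos held 1 at base 185, while the Ccl3 and Fosb windows held none. The full CRE (TGACGTCA), the AP-1 site (TGANTCA) and the CArG box of serum response factor were in none of the 5 windows, and the heat shock element (GAANNTTC or TTCNNGAA) was in that of Ccn1 at base 169. Both strands were searched, and each full CRE also counts as a half-site. Over the 32817 promoters in the table, 7.51% held a half-site, 1.79% a full CRE, 7.81% an AP-1 site, 15.1% a heat shock element and 1.63% a CArG box. Over the 15686 promoters of measured genes the shares were 9.11%, 2.42%, 7.27%, 13.4% and 1.49% in the same order. Of the 34 higher genes, 28 had a window that was searched, and 10 of these held the half-site (35.7%), 2 the full CRE, 4 the heat shock element, 2 the CArG box and 0 the AP-1 site. The 10 were Atf3, Btg2, Ccn1, Ccrl2, Dusp1, Egr4, Fos, Npas4, Ptgs2 and Rgs2. The half-site was added after the other motifs had been searched, so the share is a description of these letters and has no test.

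**Figure D2:**
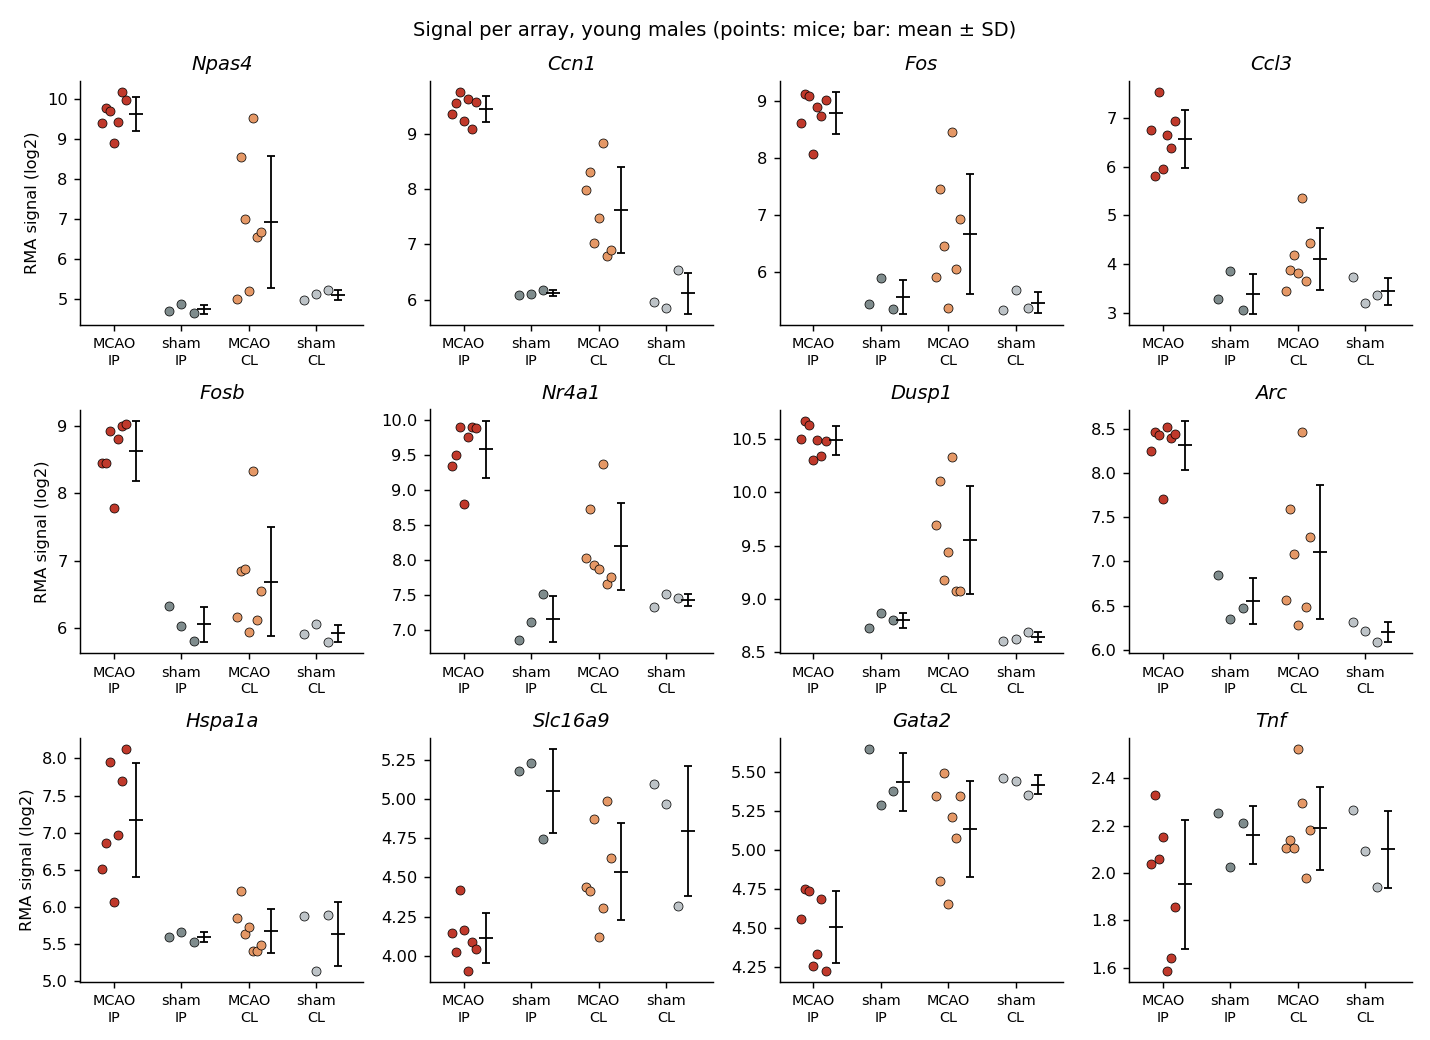
Log2 signal (y axis) of 12 genes in every array, with MCAO IP, sham IP, MCAO CL and sham CL from left to right; points are mice and bars the mean ± SD. Npas4, Ccn1, Fos and Dusp1 have MCAO IP arrays far above the sham IP arrays, Slc16a9 and Gata2 have them below, and for Tnf the groups overlap.

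Early transcription factors made up the largest group of higher genes. Of 31 measured genes on that list, 14 rose (against 0.174% of all genes), none fell and 17 did not pass, with a list median of 0.84 against 0.02 over all genes, and 19 were higher at the 0.25 threshold. Nr4a1, an orphan nuclear receptor, lay between 8.80 and 9.91 (median 9.76) in MCAO arrays and at 6.85, 7.11 and 7.51 in sham arrays, a difference of 2.43 (SE 0.23, adjusted p = 5.38e-05). Atf3, a repressor switched on by cell stress, averaged 6.45 ± 0.38 in MCAO arrays and 4.21 ± 0.83 in sham arrays (SD, n = 7 and 3). The wide sham spread came from values of 4.10, 3.44 and 5.09, and the difference was 2.23 (SE 0.29, adjusted p = 0.00176). Junb differed by 2.05, Ier2, a small nuclear protein, by 1.92, Egr2 by 1.90, Egr4 by 1.77 and Jun by 1.32. Jun was the most even of these, with MCAO arrays between 7.73 and 8.18 and sham arrays at 6.53, 6.64 and 6.61, whereas Egr4 spread between 6.53 and 8.46 in MCAO arrays. Klf4, Maff, Per1 and Cebpb rose by 1.27, 0.86, 0.81 and 0.80.

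Not every early factor passed the threshold. Egr1, the best known of the Egr family, had a mean of 10.85 in MCAO arrays and 10.20 in sham arrays, a difference of 0.65 that was not called (adjusted p = 0.154) although the groups did not overlap. Fosl2 had a difference of 1.43 (SE 0.28, adjusted p = 0.0662), larger than that of Jun but with a wider spread between arrays. Nr4a3 stood just outside the threshold, with MCAO arrays between 8.83 and 9.71 and sham arrays at 8.47, 8.23 and 8.30, a difference of 1.04 (SE 0.20, adjusted p = 0.0532). Just inside it were Per1, Cd14, Rnd3 and Crybg2, each at an adjusted p = 0.0486.

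Brakes on the kinase cascade rose beside the factors. Of 25 genes for feedback on MAP kinases and G proteins, 5 rose (against 0.174% of all genes). None fell and 20 did not pass (list median 0.55). Dusp6, which removes phosphate from ERK, had MCAO arrays between 8.97 and 9.32 (median 9.10) and sham arrays at 7.19, 7.25 and 7.50. Its 7 MCAO arrays lay within a narrow band, and the difference was 1.80 (SE 0.13, adjusted p = 2.96e-06). Dusp1, which acts on p38 and JNK, had MCAO arrays between 10.30 and 10.67 and sham arrays at 8.72, 8.86 and 8.81, a difference of 1.69 (SE 0.12, adjusted p = 3.65e-06). Gadd45g, a stress sensor upstream of p38, and Rgs2, which shortens G protein signals, differed by 1.97 (SE 0.16) and 1.88 (SE 0.22).

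The short list of factors for mRNA decay and growth arrest behaved likewise, with 3 of 13 genes higher (against 0.174% of all genes). None was lower, and the median was 0.55. Btg2, an antiproliferative factor that promotes loss of poly(A) tails, had MCAO arrays between 7.70 and 8.43 and sham arrays at 5.56, 6.23 and 6.07, a difference of 2.20 (SE 0.18, adjusted p = 1.26e-05). Zfp36 (tristetraprolin), which destroys mRNAs with AU-rich elements such as that of Tnf, averaged 6.76 ± 0.38 in MCAO arrays and 4.76 ± 0.11 in sham arrays, a 4-fold difference, and its relative Zfp36l2 rose by 1.03. Ppp1r15a, which restores translation after stress, had a difference of 0.82 and just missed the threshold (adjusted p = 0.0567).

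Among effectors of neuronal activity, 2 of 29 rose (against 0.174% of all genes), none fell and 27 did not pass (median 0.32). Arc, which removes glutamate receptors from synapses, had MCAO arrays between 7.71 and 8.52 (median 8.43) and sham arrays at 6.84, 6.35 and 6.48, a difference of 1.76 (SE 0.17, adjusted p = 9.12e-05). Ptgs2, the inducible cyclooxygenase that neurons also make after strong activity, had MCAO arrays between 7.40 and 8.52 and sham arrays at 5.99, 5.71 and 5.92, a difference of 2.10 (SE 0.21, adjusted p = 0.000114). It was the only one of 19 prostaglandin genes that was called. Bdnf, a growth factor of neurons, had 0.91 (SE 0.18, adjusted p = 0.0662) without overlap of the groups. Neither the 27 glutamate and GABA receptor genes nor the 28 potassium channel genes held a called gene at either threshold, with medians of 0.02 and 0.00.

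Genes of vessels and matrix gave 5 rises in 27 (against 0.174% of all genes), no fall and a median of 0.22. Beside Ccn1 they were Adamts1, a protease of the matrix, at 1.90 (SE 0.23), Apold1, an early gene of endothelium, at 1.77 (SE 0.20), Thbs1, which inhibits new vessels, at 1.44 (SE 0.22), and Maff. Apold1 had MCAO arrays between 6.04 and 7.19 and sham arrays at 4.88, 5.03 and 5.26, and MCAO mouse 5 was the lowest. The mean signal over 18 endothelial marker genes lay between 6.05 and 6.23 in MCAO arrays and between 5.93 and 6.10 in sham arrays, none of the markers was called, and Cldn5 had 0.89 (adjusted p = 0.252). In whole tissue more cells of a type and more RNA per cell cannot be told apart.

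Among chemokine, cytokine, innate receptor and NF-kappaB genes, 1 chemokine and 2 innate receptor genes were called, where 0.174% of all genes were called higher. Ptgs2, given above, was called on the prostaglandin list. Of 26 chemokine genes Ccl3 alone was called, with a list median of 0.07 (Ccl2, which attracts monocytes, had 1.06 and an adjusted p = 0.279, and Ccl4, a related chemokine, 0.42 and an adjusted p = 0.647). Of 22 cytokine and growth factor genes none was called at either threshold, and the median was 0.01. Il1b lay between 2.09 and 2.92 in MCAO arrays and at 2.82, 1.65 and 2.41 in sham arrays, and Tnf between 1.59 and 2.33 in MCAO arrays and at 2.25, 2.02 and 2.21 in sham arrays. Both groups overlapped for these 2 cytokines, whose signals were dim (20.7th and 12.9th percentile of mean signal), and the 95% intervals of the differences were −0.30 to 0.69 for Il1b and −0.56 to 0.14 for Tnf. Ccrl2, a receptor that holds the chemoattractant chemerin, rose by 1.24 and Cd14, the coreceptor for endotoxin, by 1.16, the only 2 of 23 innate receptor genes. Of 21 NF-kappaB genes none passed at 0.05 and 2 were higher at an adjusted p under 0.25. These were the inhibitor Nfkbid at 1.01 (adjusted p = 0.0546) and Nfkbiz at 0.78 (adjusted p = 0.133). Tnfaip3 had 1.11 (adjusted p = 0.311).

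No marker of blood cells was called. Of 17 neutrophil, 14 monocyte and macrophage and 13 lymphocyte markers none passed in either direction, and the neutrophil list averaged between 2.42 and 2.69 in MCAO arrays and between 2.50 and 2.68 in sham arrays. S100a8, an abundant mRNA of neutrophils, had a difference of 0.50 (adjusted p = 0.613).

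Of 20 heat shock genes none was called at 0.05, and 2 were higher at an adjusted p under 0.25. The mean over the list lay 0.20 to 0.45 above the sham mean in the 7 MCAO mice, against −0.15 to 0.14 in the 3 sham mice, and Hspa1a spread more widely between mice. Hspa1a, the inducible HSP70, had MCAO signals of 6.52, 6.86, 7.95, 6.07, 6.97, 7.70 and 8.13 in mice 1, 2, 4, 5, 6, 7 and 8, against 5.59, 5.66 and 5.52 in sham arrays. All 7 lay above the sham mice, but they spread over 2 units, 3 of them high and mouse 5 close to the sham level, and the difference was 1.58 (SE 0.36, adjusted p = 0.158). Hspa1b, its near-identical neighbour with which it can share probes, had 1.50 (SE 0.39, adjusted p = 0.279), and Hspb1, a small heat shock protein, 0.76 (adjusted p = 0.0672). Of 29 targets of hypoxia-inducible factor and 26 genes of the integrated stress and unfolded protein response none was called at 0.05, with medians of 0.11 and 0.17. Atf3, switched on by cell stress and called above, was counted on the list of early transcription factors and not here.

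The lists of clock and glucocorticoid genes each held 2 called genes, where 0.174% of all genes were called higher. Per1 and Ciart, a repressor of the clock, rose by 0.81 and 1.12 among 21 clock genes. Of 30 glucocorticoid and FoxO responsive genes, Dusp1 and Per1 rose, while the list median was −0.08, below the 0.02 of all genes. Fkbp5, a common reporter of glucocorticoid action, averaged 7.69 ± 0.33 in MCAO arrays and 8.10 ± 0.36 in sham arrays, a difference of −0.40 that did not pass (adjusted p = 0.702), and Sgk1 lay between 8.01 and 8.57 in MCAO arrays and at 8.40, 8.45 and 8.30 in sham arrays. The 2 remaining higher genes were Depp1, an autophagy regulator, at 1.83 (SE 0.21), and the pseudokinase Trib1 at 1.11.

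**Figure D3:**
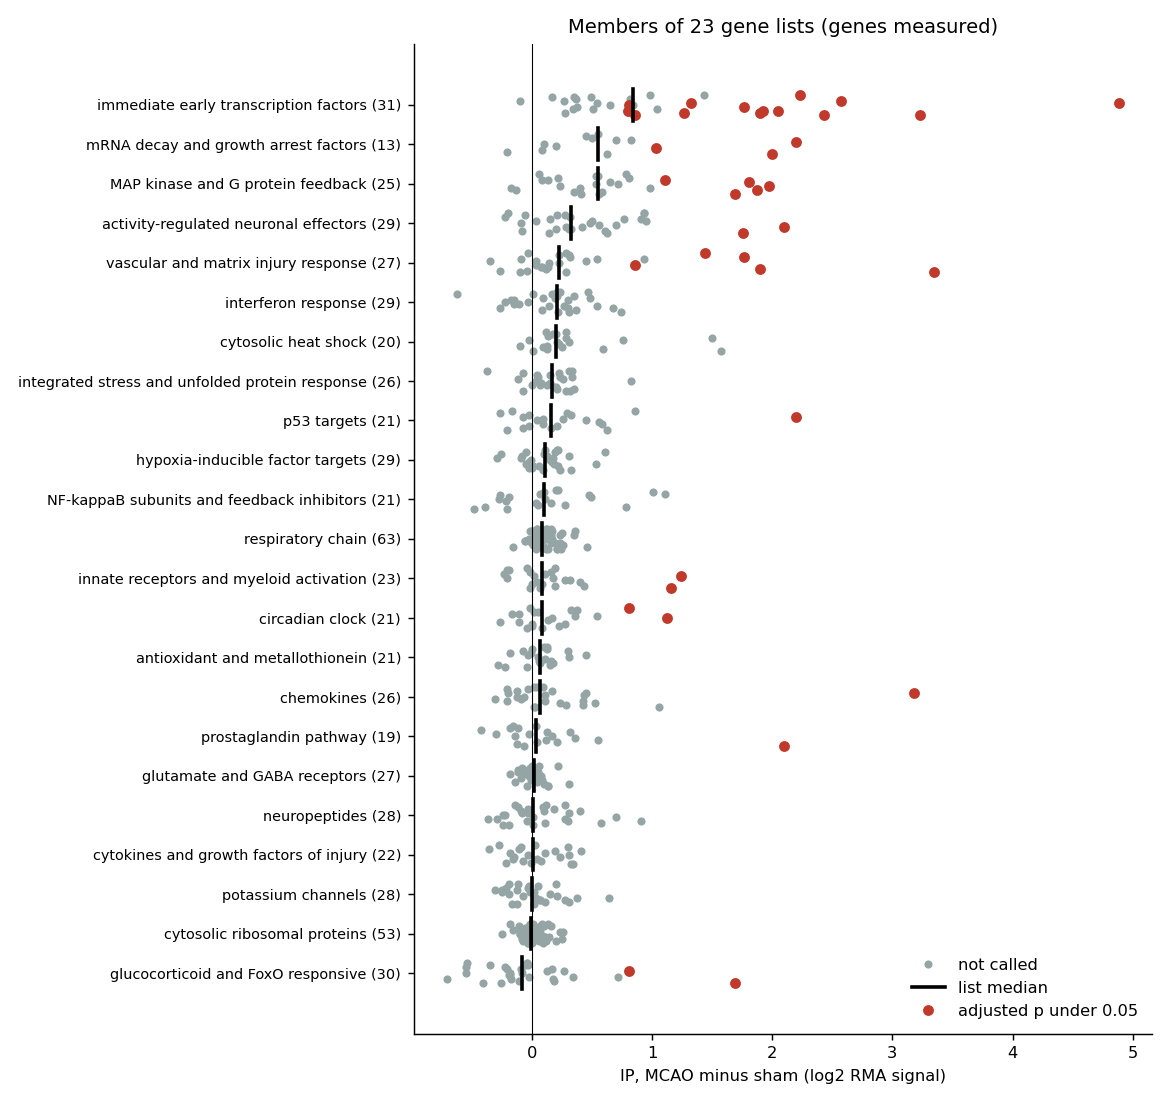
Difference in log2 signal, MCAO minus sham in IP (x axis), of each measured member of 23 gene lists (rows, number of members in brackets). Red points are genes with an adjusted p under 0.05 and black bars the list medians, which run between −0.08 for glucocorticoid and FoxO responsive genes and 0.84 for early transcription factors.

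The 6 lower genes changed less. Slc16a9, a transporter of carnitine, had MCAO arrays between 3.91 and 4.42 (median 4.09) and sham arrays at 5.18, 5.23 and 4.74, a difference of −0.94 (SE 0.14, adjusted p = 0.00932). Gata2, a transcription factor of blood progenitors, vessels and some inhibitory neurons, had MCAO arrays between 4.23 and 4.75 and sham arrays at 5.65, 5.29 and 5.38, a difference of −0.93 (SE 0.15, adjusted p = 0.0177). For both, the highest MCAO array lay below the lowest sham array. Col23a1, a membrane collagen, differed by −0.82 (SE 0.14), and 5830454E08Rik, Zfp648 and Crybg2 by −0.97, −0.92 and −0.69. Their mean signals stood between the 30.6th and the 49.4th percentile of all genes. Just outside stood Col4a6, a collagen of basement membranes, at −1.09 (adjusted p = 0.0508). These calls depended on the sham mice, since 1 of the 6 or none was called again when a sham mouse was left out, and the lower count was then 1 to 3.

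The sham group rests on 3 mice. Leaving out sham mouse 2 gave 24 called genes, sham mouse 3 gave 26 and sham mouse 4 gave 29, while leaving out 1 MCAO mouse gave between 31 and 45. Of the 34 higher genes, 22, 22 and 25 were called again without sham mouse 2, 3 and 4. Egr2, Egr4, Klf4, Per1, Cd14, Rnd3 and Zfp36l2 were lost in each of these fits, and Jun and Junb in none. With all 12 mice 1 gene was called, Ccn1. In the left-out array of MCAO mouse 3 the 34 higher genes had a median of 0.23 above the sham mean, against 1.23 to 2.01 in the 7 MCAO arrays used.

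The mice differed in strength. Over the 34 higher genes MCAO mouse 5 was the lowest of the 7 in 21 genes, with a median of 1.23 above the sham mean, while mouse 4 was the highest in 9 and had a median of 2.01. For the list of early transcription factors the mean above sham was 1.18, 1.27, 1.33, 0.75, 1.39, 1.27 and 1.26 in mice 1, 2, 4, 5, 6, 7 and 8, and the 3 sham mice lay within 0.06 of their mean. Mouse 5 was therefore weakest and the other mice were close together. The mice also differed in markers of striatal medium spiny neurons, the main cells of the striatum, which this artery supplies. These were 1.03 below the sham mean in MCAO mouse 2 and 0.57 below in mouse 5, but 0.46 above in mouse 6, and the CL hemispheres of the same mice were at −0.93, −1.18 and 0.44. The 17 markers averaged between 6.93 and 8.42 in MCAO arrays (median 7.77) and between 7.76 and 8.12 in sham arrays, and none was called. The part of this difference in the results was not tested, other than by leaving mice out. An added fit without mice 2 and 5, chosen with these values in view, called 46 genes, of which 39 were higher, 7 lower and 33 among the 40. Oligodendrocyte markers averaged 7.71 to 7.96 in MCAO arrays and 7.55 to 7.70 in sham arrays, with none of 15 called, and their part in the results was not tested.

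**Figure D4:**
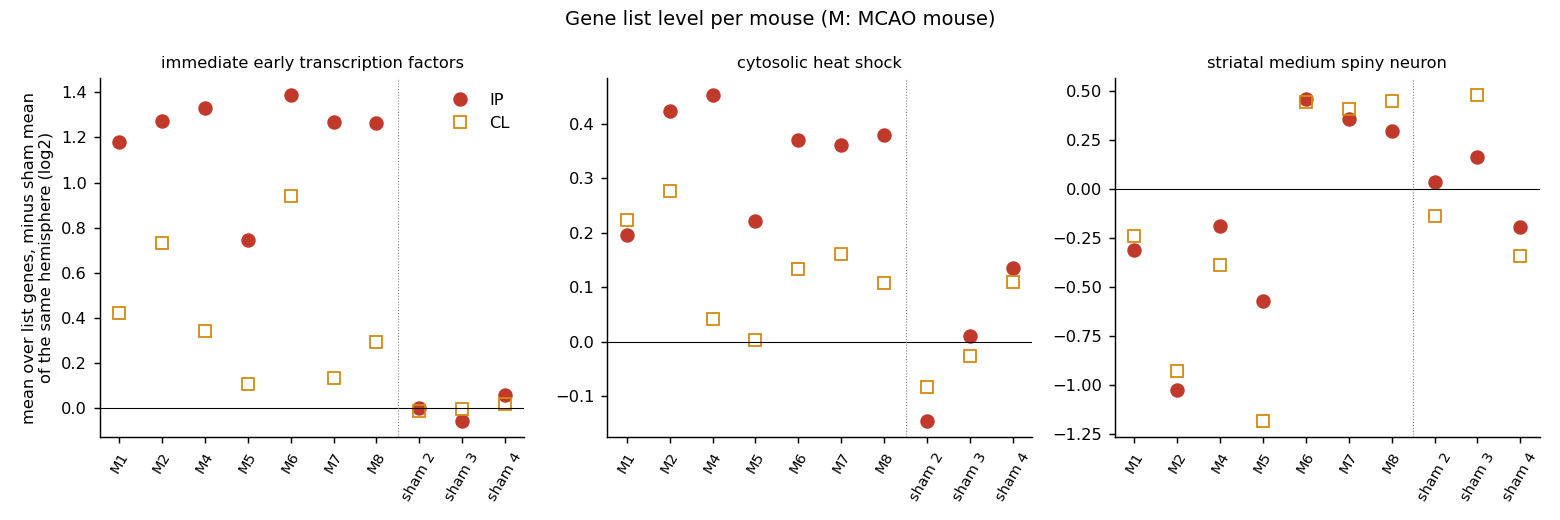
Mean over the genes of 3 lists in each mouse, minus the sham mean of the same hemisphere (y axis, log2), with MCAO mice 1 to 8 (M) left of sham mice; filled circles are IP and open squares CL. MCAO mouse 5 is lowest in early transcription factors in IP at 0.75, mouse 6 highest in CL at 0.94, and the striatal markers of both hemispheres of a mouse move together.

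The CL arrays of the same mice gave the surgery effect on the side that was not occluded. In CL no gene was called between MCAO and sham mice at 0.05 (0%) and 1 at 0.25 (0.00513%; limma, 903 genes at an unadjusted p under 0.05). That gene was Apold1, also 1 of the 34 higher genes in IP, with a CL difference of 1.04 (limma adjusted p = 0.141). The MCAO mean was nonetheless higher in CL in 34 of the 34 genes, against 53% of all genes, and their median difference was 1.82 in IP and 0.66 in CL. In CL 8 of the 34 did not overlap between the groups, against 0.805% of all genes, and 21 were higher with an unadjusted p under 0.05, against 2.62% of all genes. The 34 were chosen on the IP arrays of the same mice, and both hemispheres of a mouse are correlated, so these CL counts are a description. Ccn1 in CL averaged 7.62 in MCAO and 6.11 in sham mice, Dusp1 averaged 9.55 in MCAO and 8.64 in sham mice, and Btg2 averaged 6.85 in MCAO and 5.85 in sham mice, in each case without overlap. For Klf4 and Maff the CL differences, 1.10 and 0.78, were close to those in IP, and the differences between hemispheres were 0.17 (SE 0.31) and 0.08 (SE 0.23). The MCAO mean of Npas4 in CL, 6.92, hid a wide range: 4.99, 8.54, 6.99, 5.19, 9.51, 6.56 and 6.68 in mice 1, 2, 4, 5, 6, 7 and 8, against 4.96, 5.11 and 5.21 in sham mice. Mouse 6 had Npas4 at 9.43 in IP and 9.51 in CL, and it had the highest CL signal of the 7 in 22 of the 34 genes, while mice 1 and 5 were at the sham level for Npas4.

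The surgery effect in IP minus that in CL was tested on IP minus CL of each mouse. No gene passed at 0.05 (0%) and 3 passed at 0.25 (0.0154%), Ccl3, Junb and Col23a1, each at an adjusted p = 0.233, while in limma 1157 genes reached an unadjusted p under 0.05. Ccl3 rose by 2.50 more in IP than in CL (SE 0.40), Junb by 1.37 more (SE 0.22), and Col23a1 fell by 1.01 more (SE 0.16). All 34 higher genes had a positive value (51% of all genes did) and 31 of them an unadjusted p under 0.05 (3.02%), and 27 had a higher IP than CL signal in each of the 7 MCAO mice (1.28%). These 34 genes were chosen on the same IP arrays, which favours a positive value, so the counts are a description. Npas4 had 3.05 (SE 0.75, adjusted p = 0.433), Ccn1 1.83 (SE 0.38, adjusted p = 0.278) and Fos 2.03 (SE 0.42, adjusted p = 0.278), none of which passed over all genes. Among the 4877 genes of high standard deviation, the filter in the study's methods, 40 passed at 0.25 (30 higher and 10 lower), with Npas4 (adjusted p = 4.58e-05), Fos (adjusted p = 0.000856) and Ccn1 (adjusted p = 0.00229) among them. The prior degrees of freedom of the limma fit were 49.0 with this filter and 4.99 over all genes. The filter used the standard deviation over the same arrays that were compared, which holds the difference between the groups. The adjusted p-values after it are therefore a description and no independent evidence. Without MCAO mouse 6, 9 genes passed at 0.05, all higher: Junb, Btg2, Fos, Gadd45g, Ptgs2, Fosb, Ccl3, Rgs2 and Npas4. For Col23a1 the sham IP arrays were at 4.93, 5.10 and 4.93 and their CL arrays at 4.11, 4.50 and 4.23, so that the sham hemispheres differed too, and the sham IP level was the high one.

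**Figure D5:**
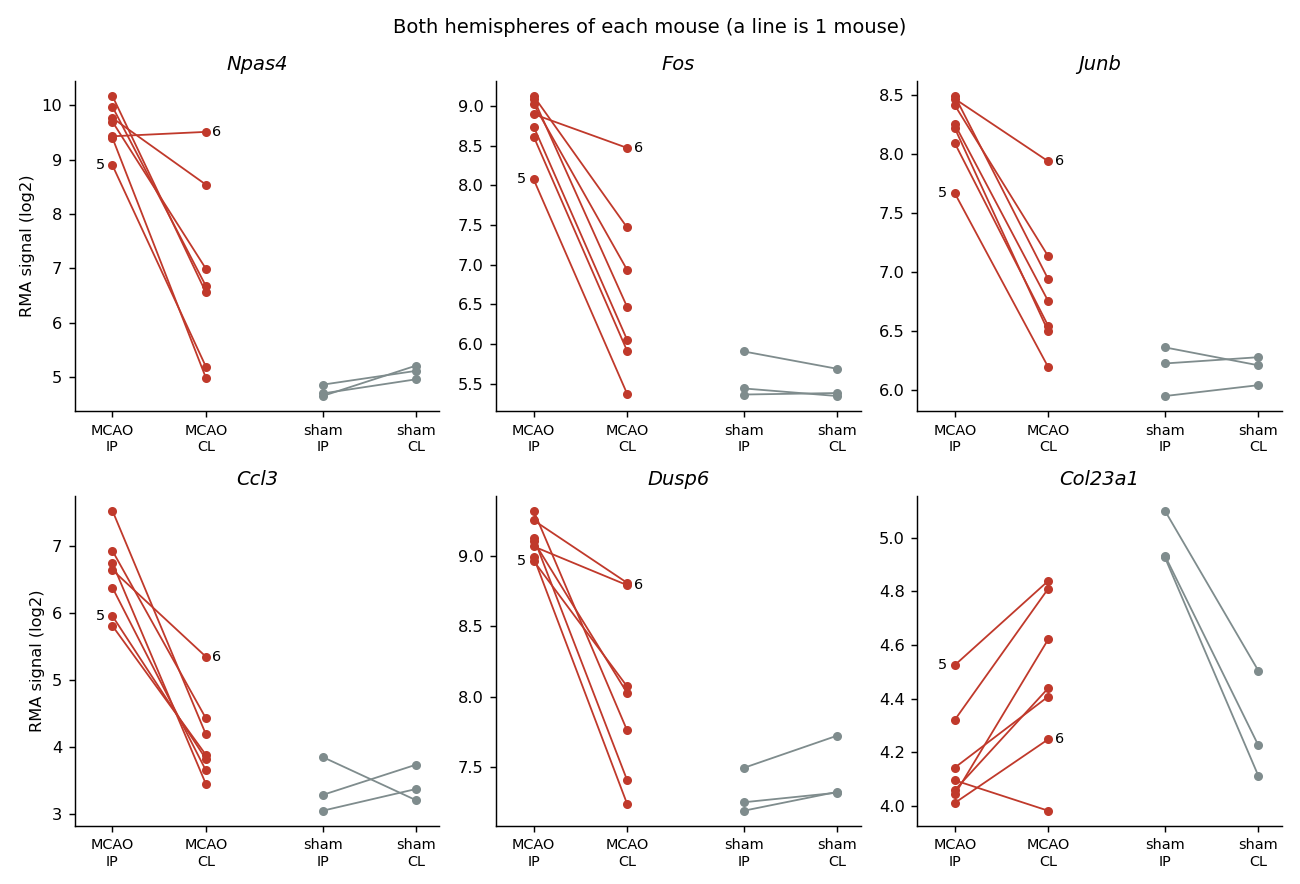
Log2 signal (y axis) of 6 genes in both hemispheres of each mouse, MCAO left (red) and sham right (grey), with a line for each mouse and MCAO mice 5 and 6 numbered. The red lines fall from IP to CL in Fos, Junb, Ccl3 and Dusp6, mouse 6 stays high in CL, and in Col23a1 the sham IP points lie above all others.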

How the data were processed

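The authors normalized the young male arrays by Robust Multiarray Average, apart from the other groups, and deposited the resulting log2 signals. Among tools, the submitters' processing notes list the Affymetrix Expression Console, with no version. Of 29129 probe sets, 19572 carried 1 gene symbol in the platform annotation, none several and 9557 none, and the probe set of highest mean stood for a symbol, which leaves 19505 genes. No further normalization and no filter was applied.

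IP arrays of 7 MCAO and 3 sham mice were fitted with limma 3.58.1 in R 4.3.3 (empirical Bayes, 8 residual and 6.46 prior degrees of freedom), with p-values adjusted over all genes. The hemispheres were compared on IP minus CL of each mouse. Both arrays of a mouse are a true pair (correlation of deviations from group means 0.0953 to 0.292, median 0.141, against −0.0245 between mice). The fits were run on simulated data with known differences, independent normal noise and the same spread of a gene in both groups. Such data lack mouse effects and genes that move together, so the run does not cover those. Python 3.11.15 with pandas 2.3.3 and matplotlib 3.10.9 served for promoters and figures. MCAO mouse 3 and sham mouse 1 (4 arrays) were left out. The members, gene lists and tests were chosen with earlier results of these data known. Genes named are the 15 largest called rises and falls (to 10 of lowest p where fewer were called), up to 6 members of each of 40 lists (23 pathways, 17 cell types; 816 of 894 genes measured), a set of early, stress and steroid genes, and the 10 of lowest p between hemispheres. The promoters are those of the 5 largest rises.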

Additional observations from a re-analysis of the deposited data

Results flagged for a closer look

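In 5 of 54 genes examined, 1 of the 7 MCAO arrays stood farther from the rest than a Dixon test allows at its 95% level, which chance does in about 1 of 20 groups. MCAO mouse 5 was the lowest for Arc (7.71), Apold1 (6.04) and Depp1 (5.29), MCAO mouse 8 for Ccrl2 (3.44) and MCAO mouse 4 for Maff (3.69). All 5 arrays still lay above the 3 sham arrays. In 3 genes the IP hemisphere differed from CL one way in all 7 MCAO mice and the other way in all 3 sham mice. The difference of the surgery effect, IP minus CL, was 1.24 for Dusp6 (SE 0.31, limma adjusted p = 0.433), 0.88 for Bdnf (SE 0.24, adjusted p = 0.558) and −0.55 for Crybg2 (SE 0.16, adjusted p = 0.633), so none passed over all genes.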

How the results depend on the processing

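Of 40 genes called, 34 higher and 6 lower, the count was 108 (78 higher, 30 lower) at an adjusted p under 0.25, and 104 (81 and 23) at that threshold among genes of high standard deviation. With all 12 mice it was 1 (1 and 0), and with array weights on the 12 mice 54. Among genes at or above the median signal 1 was lower. The calls lower numbered 2 and those of either sign 45 with the mouse number as a replicate block, where same-numbered MCAO and sham mice are different animals (correlation of deviations 0.0508 and 0.0190) and 1 residual degree of freedom remained. Leaving out a mouse gave between 24 and 45 called genes, 22 to 38 higher and 1 to 8 lower. The hemisphere difference gave 3 calls at 0.25, 40 at that threshold with the filter on standard deviation, and at 0.05 it gave 0 to 9 when a mouse was left out, with 9 without MCAO mouse 6, and 0 with no replicate block and with the mouse number as a replicate block. With all 12 mice, Il1b was at −0.34 and Sgk1 at 0.10, and with the replicate block at −0.32 and 0.15. Il1b ran between −0.13 (without sham mouse 3) and 0.46 (without sham mouse 2) when a mouse was left out. The negative Il1b and positive Sgk1 values are opposite in sign to those of the 10 arrays, and none was called. The causes were not tested. Of the other settings tried (standard deviation filter, array weights, trended variance, quantile normalization, median centring, probe set means, mouse as a random block), the counts stayed between 35 and 56. The number of arrays limits the precision, and leaving out any 1 of the 3 sham mice moved the count of called genes more (to 24, 26 and 29) than leaving out any 1 MCAO mouse (to 31 to 45).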
